A study of Mus musculus with 4 samples.

Results

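Genes for the making, release, breakdown and sensing of acetylcholine were examined in the mPFC (medial prefrontal cortex, part of the frontal neocortex) of control mice and of mice in a depression-like state. The 10 genes were those whose symbol in the deposited expression table was Chat, Slc18a3, Slc5a7, Ache, Chrm1, Chrm2, Chrm3, Chrm4, Chrna4 or Chrnb2, out of 17778 genes in the table. Each of the 10 was found once. Each of the 10 also had at least 0.5 RPKM in at least 1 of the groups, as did 14257 genes in all. RPKM is a read number divided by the length of the gene and by the depth of the library, so levels of different genes can be set side by side.

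The mice were males of the strain labelled C57BL/6 (C57BL/6J in the methods), a common inbred laboratory strain. They carried no transgene or deletion according to the labels and methods. They were juvenile when the procedure began, and tissue was taken several weeks later. CUMS mice (2 libraries) had gone through chronic unpredictable mild stress, a schedule of changing mild stressors over several weeks, and were taken for sequencing after behavior tests had shown a depression-like state. Control mice (2 libraries) had lived without these stressors. Mice were thus compared after a selection on behavior in the stressed group, and RNA was isolated from each mouse, while the pooling of RNA for a library was not described.

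The table held 1 mean per group and gene, made by the authors, so each value below is the authors' mean over the 2 libraries of a group. The spread between libraries cannot be seen in it, and no difference below has a replicate test. The spacing of low values gave a depth of about 7385524 fragments for a control library and 7440476 for a CUMS library. This estimate is far lower than the read numbers given for the libraries in the study, and the gap was not explained. Fragment numbers and 95% intervals below rest on the estimate, and a larger depth would narrow the intervals. The intervals cover counting error only, and are therefore narrower than intervals that would include differences between mice.

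Acetylcholine is made from choline and acetyl-CoA by choline acetyltransferase, loaded into vesicles by the vesicular transporter and cleaved after release by acetylcholinesterase, and the choline is then taken back into the terminal. In the neocortex most of it comes from axons of basal forebrain neurons, whose cell bodies, and hence most of their mRNA, lie outside the cortex. Some cortical interneurons make it too. It acts on muscarinic receptors, which signal through G proteins, and on nicotinic receptors, which are ion channels built from several subunits.

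The genes fell into a low and a high set. Chat, Slc18a3, Slc5a7 and Chrm2, which include the genes that define a cholinergic neuron, had 1.69 to 2.75 RPKM in control and 0.77 to 1.01 RPKM in CUMS. Their CUMS means were 1.71-fold to 3.55-fold lower. Ache, Chrm1, Chrm3, Chrm4, Chrna4 and Chrnb2 had 11.45 to 45.53 RPKM in control, and their means differed by less than 1.5-fold between groups, with 3 lower and 3 higher in CUMS.

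Counts over the 10 genes read as follows against the whole table. In CUMS 7 of the 10 had a lower mean, against 53.2% of the 14257 genes with at least 0.5 RPKM. A mean more than 1.5-fold lower was found for 4 of the 10, against 4.41% of these genes. The 4 were also the members whose larger mean lay between 0.5 and 5 RPKM, and in that band 10.5% of 4860 genes were more than 1.5-fold lower. A mean more than 1.5-fold higher was found for 0 of the 10, against 2.78%. The counting interval of the log2 ratio lay under 0 for 6 members, against 16.8%, and above 0 for 3 members, against 12.5%. Genes with more fragments reach such intervals at smaller ratios, and these shares were not matched for level. The median log2 ratio of CUMS over control was -0.22 over the 10 and -0.02 over the 14257 genes. The summed level of the 10 genes was almost the same, at 160.57 RPKM in control and 159.235 RPKM in CUMS. Abundant members made up most of this sum, and they differed in both directions.

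**Figure D1:**
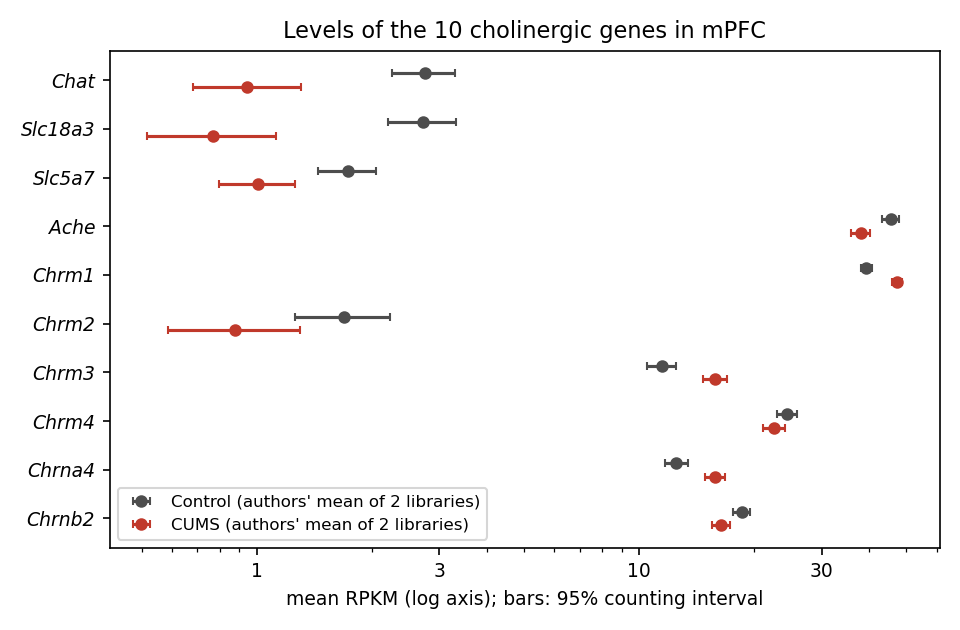
Mean level of the 10 genes in RPKM on a log axis, with control in grey and CUMS in red. Points are the authors' means of 2 libraries and bars are 95% Poisson counting intervals. Chat, Slc18a3, Slc5a7 and Chrm2 sit between 0.77 and 2.75 RPKM, with the CUMS points to the left, while the other genes sit between 11.45 and 47.27 RPKM.

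**Figure D2:**
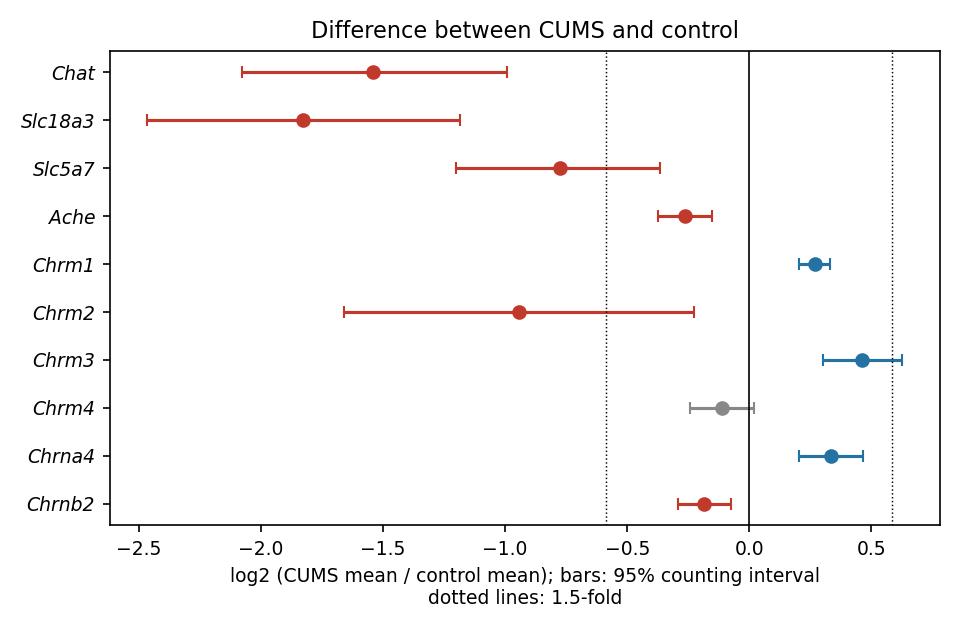
Log2 ratio of CUMS over control for each of the 10 genes, with 95% counting intervals. Red marks intervals under 0 (6 genes), blue intervals above 0 (3 genes) and grey an interval that includes 0 (Chrm4), and the dotted lines mark 1.5-fold. The ratios run from -1.83 for Slc18a3 to 0.46 for Chrm3.

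Of the presynaptic genes, Slc18a3 and Chat had the largest differences of the 10 genes, while Slc5a7 came after Chrm2. Chat (gene ID 12647) encodes choline acetyltransferase, the enzyme that makes acetylcholine. Slc18a3 (gene ID 20508) encodes VAChT, the transporter that fills synaptic vesicles with it. The genes share a locus, annotated on the minus strand of mouse build GRCm38.p6 at chr14:32408203-32465909 for Chat and chr14:32462437-32464850 for Slc18a3. In the GENCODE M21 annotation the single exon of Slc18a3 lies inside intron 1 of Chat, from 1139 to 3551 bases after the Chat start, and shares 0 bases with the 17 exon blocks of Chat. A read from unspliced Chat RNA in that stretch would have been counted for Slc18a3, and its part in the values was not tested.

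**Figure D3:**
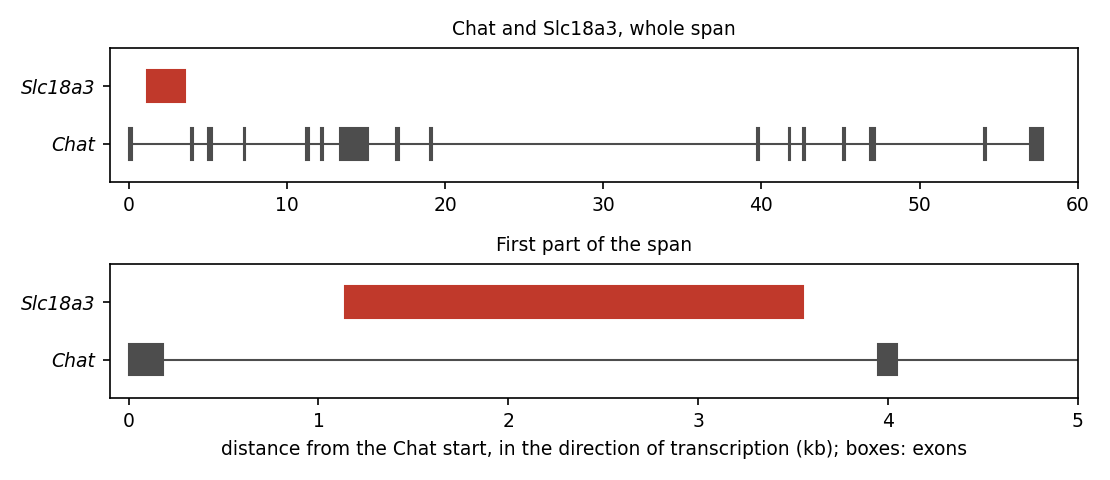
Map of the Chat and Slc18a3 genes in kilobases from the Chat start in the direction of transcription, with the whole span above and its first part below. Boxes are exons and lines are gene spans. Slc18a3 is a single box between exon blocks of Chat, in an intron that runs from 182 to 3947 bases.

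The sequence before the start of each of the 3 presynaptic genes is given because these genes had lower means together, while only the first 2 lie in 1 locus. The stretches are RefSeq sequence of build GRCm38.p6 from the 250 bases upstream of the start, on the minus strand, trimmed to what lies outside exons of GENCODE M21, and capitals mark TGACG or its reverse complement CGTCA, the core of a cAMP response element. They cover chr14:32465990-32466159 for Chat, chr14:32464851-32465041 for Slc18a3 and chr17:54299035-54299284 for Slc5a7. The Slc5a7 stretch adjoins the GENCODE start of that gene at 54299034. The RefSeq locus given below for Slc5a7 reaches 54299038, so the last few bases of the stretch lie inside it.
Chat: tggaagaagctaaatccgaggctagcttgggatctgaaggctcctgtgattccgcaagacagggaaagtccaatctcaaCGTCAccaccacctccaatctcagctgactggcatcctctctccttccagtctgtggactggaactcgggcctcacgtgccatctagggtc
Slc18a3: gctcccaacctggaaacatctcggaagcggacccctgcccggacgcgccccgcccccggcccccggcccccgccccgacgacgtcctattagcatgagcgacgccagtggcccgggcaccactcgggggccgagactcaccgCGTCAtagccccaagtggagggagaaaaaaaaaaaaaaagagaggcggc
Slc5a7: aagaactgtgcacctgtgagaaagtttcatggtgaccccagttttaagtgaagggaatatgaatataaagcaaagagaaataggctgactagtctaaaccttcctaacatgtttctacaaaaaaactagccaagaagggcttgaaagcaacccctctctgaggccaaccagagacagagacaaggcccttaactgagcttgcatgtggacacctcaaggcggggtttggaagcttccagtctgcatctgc
The Slc18a3 stretch had 67.5% G and C, the Chat stretch 54.7% and the Slc5a7 stretch 45.6%. On either strand of the 250 bases, TGACG was found in 1 place for Chat, in 1 for Slc18a3 and in 0 for Slc5a7, and 17.9% of 27025 mouse promoters of the same length hold it. The E-box CANNTG was found in 2, 1 and 3 places in Chat, Slc18a3 and Slc5a7, and 66.0% of promoters hold it. The GC box GGGCGG was found in 2 places in Slc18a3 and in 0 in the others (32.9% of promoters), and CCAAT in 2 places in Chat and in 0 in the others (34.5%). The full element TGACGTCA (1.62% of promoters) and the homeodomain core TAATTA (4.90%) were in 0 of the 3. These matches describe the letters of the windows.

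Chat had 2.75 RPKM in control (95% counting interval 2.27 to 3.30, an estimated 114 fragments over the group) and 0.945 RPKM in CUMS (0.683 to 1.30, 40 fragments). The CUMS mean was 2.91-fold lower, a log2 ratio of -1.54 with a counting interval from -2.08 to -0.99. Among the 17778 genes of the table, Chat had a percentile rank of level of 39.1 in control and 27.3 in CUMS. In bulk tissue, fewer cells that express a gene and less of its RNA per cell cannot be told apart.

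Slc18a3 had 2.73 RPKM in control (2.21 to 3.32, 97 fragments) and 0.77 RPKM in CUMS (0.518 to 1.13, 28 fragments). It was 3.55-fold lower in CUMS, with a log2 ratio of -1.83 and an interval from -2.47 to -1.18, the largest difference of the 10 genes. The level of Chat was 1.01 times that of Slc18a3 in control (0.763 to 1.34) and 1.23 times in CUMS (0.739 to 2.07), so the neighbors in the locus did not differ in level beyond counting error in either group.

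Slc5a7 (gene ID 63993, chr17:54273590-54299038, minus strand) encodes CHT1, the high-affinity transporter that returns choline to the terminal. It had 1.73 RPKM in control (1.45 to 2.05, 133 fragments) and 1.01 RPKM in CUMS (0.797 to 1.26, 78 fragments). The CUMS mean was 1.71-fold lower, with a log2 ratio of -0.78 and an interval from -1.20 to -0.37. Chat stood above Slc5a7 in control, with a ratio of levels of 1.59 (1.22 to 2.05). In CUMS this ratio was 0.936 (0.631 to 1.41), which does not separate the genes. Summed over Chat, Slc18a3 and Slc5a7, the level was 7.21 RPKM in control against 2.725 RPKM in CUMS, a log2 ratio of -1.40.

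Breakdown of acetylcholine was represented by Ache (gene ID 11423, chr5:137288247-137294466, plus strand), which encodes acetylcholinesterase. It was the most abundant of the 10 genes in control, at 45.53 RPKM (43.2 to 47.9, 1469 fragments), and had 37.92 RPKM in CUMS (35.8 to 40.1, 1232 fragments). This is 16.7% lower, a log2 ratio of -0.26 with an interval from -0.37 to -0.15, and well under the 1.5-fold size. The level of Ache was 16.6 times that of Chat in control (13.7 to 20.2) and 40.1 times in CUMS (28.9 to 55.7). Acetylcholinesterase is made by cells that receive acetylcholine as well as by cholinergic neurons.

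Of the other genes listed for the supply and breakdown of acetylcholine, 9 of 10 had at least 0.5 RPKM. Among these, 7 had a lower and 1 a higher mean in CUMS, while 53.2% of the 14257 genes had a lower mean. A mean more than 1.5-fold lower was found for 1, against 4.41%, and the interval lay under 0 for 3, against 16.8%. The median log2 ratio of the 9 was -0.16. Prima1, which anchors acetylcholinesterase in the membrane, was the gene past 1.5-fold and is named here after its value was seen. It had 3.55 RPKM in control and 2.365 RPKM in CUMS, with a log2 ratio of -0.59 and an interval from -1.26 to 0.11 that includes 0. Slc44a1, a choline transporter of many cell types, had 20.41 RPKM in control and 16.645 RPKM in CUMS (log2 ratio -0.29). Acly, which makes acetyl-CoA, was the most abundant of the list with 61.435 RPKM in control and 53.81 RPKM in CUMS (log2 ratio -0.19). Bche, a second enzyme that cleaves acetylcholine, was low, with means of 0.445 RPKM (control) and 0.315 RPKM (CUMS).

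The muscarinic receptors differed among themselves in direction. Chrm1 (gene ID 12669, chr19:8664005-8683606, plus strand) encodes M1, a receptor coupled to Gq and known for its high expression in cortical pyramidal neurons. It had 39.245 RPKM in control (38.0 to 40.5, 3613 fragments) and 47.27 RPKM in CUMS (45.9 to 48.7, 4384 fragments), 20.4% higher, with a log2 ratio of 0.27 and an interval from 0.20 to 0.33. Chrm3 (gene ID 12671, chr13:9875486-10361062, minus strand) encodes M3, which also couples to Gq. It had 11.45 RPKM in control (10.5 to 12.5, 536 fragments) and 15.78 RPKM in CUMS (14.7 to 17.0, 744 fragments), 37.8% higher, with a log2 ratio of 0.46 and an interval from 0.30 to 0.63. Chrm3 thus had the largest difference toward a higher mean among the 10 genes, and it stayed under 1.5-fold.

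The receptors coupled to Gi/o did not have higher means. Chrm4 (gene ID 12672, chr2:91922189-91929835, plus strand) encodes M4, which is prominent in the striatum. It had 24.36 RPKM in control (22.9 to 25.9, 996 fragments) and 22.535 RPKM in CUMS (21.1 to 24.0, 928 fragments), and its log2 ratio of -0.11 had an interval from -0.24 to 0.02 that includes 0. At 2 times the estimated depth the interval of Chrm4 excluded 0 too, as then did those of 10 of 10 members. Chrm2 (gene ID 243764, chr6:36387991-36528638, plus strand) encodes M2, which serves as an autoreceptor on cholinergic terminals and is also made by other neurons. It was the least abundant of the 10 genes in control, at 1.69 RPKM (1.26 to 2.23, 51 fragments). It had 0.88 RPKM in CUMS (0.587 to 1.30, 27 fragments). This was 1.92-fold lower, with a log2 ratio of -0.94 and a wide interval from -1.66 to -0.23. In GENCODE M21, the noncoding RNA gene 9330158H04Rik lies on the opposite strand and shares 142 exon bases with Chrm2. That annotation gives Chrm2 6053 exon bases, against a deposited gene length of 2036, so whether the shared bases were counted is unknown. The noncoding RNA gene had 0.265 RPKM in control and 0.075 RPKM in CUMS, and the use of strand in counting was not stated.

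Chrm5, the remaining muscarinic receptor and not one of the 10 genes, was near the limit of detection, at 0.215 RPKM in control and 0.075 RPKM in CUMS (6 and 2 fragments). With it, the family had a summed level of 76.96 RPKM in control and 86.54 RPKM in CUMS. Chrm1 made up 51.0% of this sum in control and 54.6% in CUMS, and Chrm3 14.9% and 18.2%. The share of Chrm4 was 31.7% in control and 26.0% in CUMS, and that of Chrm2 was 2.20% and 1.017%. The level of Chrm1 was 1.61 times that of Chrm4 in control (1.501 to 1.73) and 2.10 times in CUMS (1.95 to 2.25), with intervals that do not overlap. A scaling common to the libraries of a group cancels in such ratios, while a scaling that differs between the libraries may not.

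**Figure D4:**
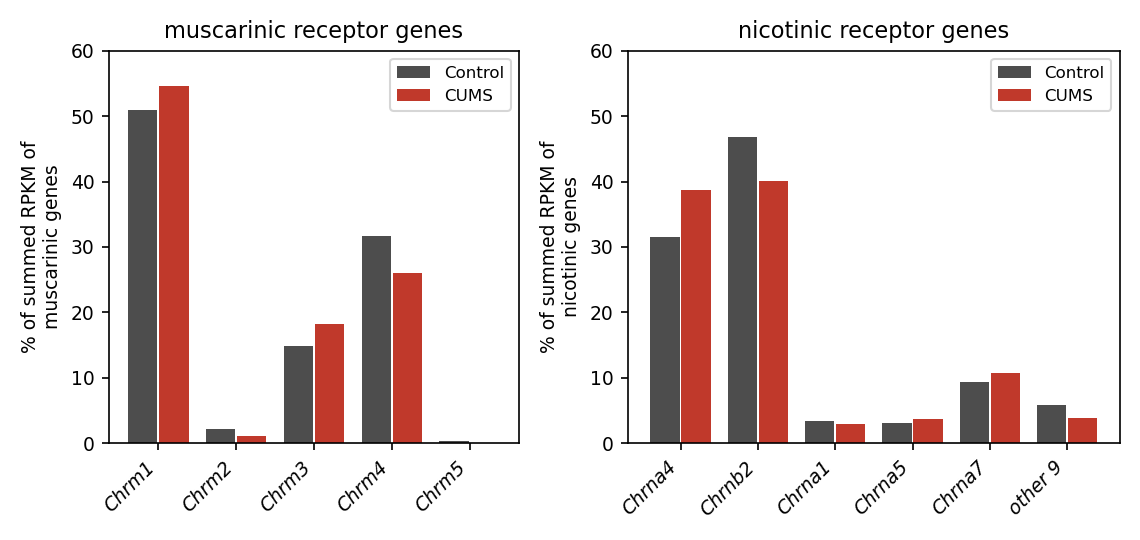
Share of each gene in the summed RPKM of its receptor family, with muscarinic genes on the left and nicotinic genes on the right, control in grey and CUMS in red. Chrm1 makes up 51.0% and 54.6% of the muscarinic sum, and Chrnb2 and Chrna4 are the tallest nicotinic bars in both groups. The bar for the other genes joins 9 nicotinic subunits that each made up less than 3% in control.

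The nicotinic members encode the subunits of the most common nicotinic receptor of the brain. Chrna4 (gene ID 11438, chr2:181022311-181043579, minus strand) encodes the alpha4 subunit and had 12.51 RPKM in control (11.7 to 13.4, 833 fragments) and 15.775 RPKM in CUMS (14.8 to 16.7, 1058 fragments). It was 26.1% higher in CUMS, with a log2 ratio of 0.33 and an interval from 0.20 to 0.47. Chrnb2 (gene ID 11444, chr3:89753448-89764632, minus strand) encodes the beta2 subunit and had 18.575 RPKM in control (17.6 to 19.5, 1483 fragments) and 16.35 RPKM in CUMS (15.5 to 17.3, 1315 fragments). It was 11.98% lower, with a log2 ratio of -0.18 and an interval from -0.29 to -0.08.

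The partner subunits therefore had means that differed in opposite directions. The level of Chrna4 was 0.673 times that of Chrnb2 in control (0.618 to 0.733) and 0.965 times in CUMS (0.889 to 1.05). In GENCODE M21, Chrnb2 shares 1365 exon bases with Adar, an RNA-editing enzyme gene on the opposite strand. Adar had 51.86 RPKM in control and 49.98 RPKM in CUMS. That annotation gives Chrnb2 8380 exon bases, against a deposited gene length of 5405, so whether the shared bases were counted for Chrnb2 is unknown. If they were, reads of Adar and Chrnb2 in those bases could not be told apart without the use of strand, which was not stated.

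Of the 14 other nicotinic subunit genes listed, 12 were found in the table. In 8 of them, namely Chrna3, Chrna6, Chrna9, Chrna10, Chrnb1, Chrnb3, Chrnb4 and Chrne, the level was under 0.5 RPKM in both groups. The 4 others had 2 lower and 2 higher means, with a median log2 ratio of 0.04. With 0.5 RPKM required in both groups, which leaves out Chrna2, this median was 0.24. Chrna2 was the gene past 1.5-fold, at 0.575 RPKM in control and 0.26 RPKM in CUMS (30 and 14 fragments), with a log2 ratio of -1.15 and an interval from -2.14 to -0.15. Chrna7, which forms channels of a single subunit type, had 3.735 RPKM in control and 4.4 RPKM in CUMS, and its interval from -0.13 to 0.61 includes 0. Over the 14 subunits in the table, the sum came to 39.735 RPKM in control and 40.785 RPKM in CUMS. Chrnb2 made up 46.7% and 40.1% of it, Chrna4 31.5% and 38.7%, and Chrna7 9.40% and 10.8%.

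Genes that assemble or modulate nicotinic receptors showed no fold past 1.5. Of 9 in the table, 5 had a lower and 4 a higher mean, with a median log2 ratio of -0.05. The interval lay under 0 for 3 and above 0 for 2, against 16.8% and 12.5% of the 14257 genes. Ly6h, a prototoxin that restrains nicotinic receptors, was the most abundant at 246.57 RPKM in control and 232.415 RPKM in CUMS (log2 ratio -0.09). Lypd6 had 7.27 RPKM in control and 8.59 RPKM in CUMS (0.24), and Ly6e had 78.595 and 89.395 RPKM (0.19). Lypd1 had 62.905 RPKM in control and 57.575 RPKM in CUMS (-0.13).

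Signaling genes downstream of the muscarinic receptors stayed under a 1.5-fold difference. Of 29 such genes, 12 had a lower and 17 a higher mean, 0 were past 1.5-fold, and the median log2 ratio was 0.08. The interval lay under 0 for 8 of them and above 0 for 12, against 16.8% and 12.5% of the 14257 genes. An interval excludes 0 at smaller ratios in genes with more fragments, and no share was taken over genes of like level. These counts therefore do not by themselves show more differences than in other genes. In the Gq arm (14 genes, median 0.04), the interval lay under 0 for 4 and above 0 for 5. Kcnq3 encodes a potassium channel subunit of the M-current, which muscarinic receptors close. It had 2.815 RPKM in control and 1.99 RPKM in CUMS (log2 ratio -0.50). Plcb4, a phospholipase C, had 5.115 RPKM in control and 4.02 RPKM in CUMS (-0.35).

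In the Gi/o arm (15 genes, median 0.10), the interval lay under 0 for 4 and above 0 for 7. Gnao1, the Go alpha subunit, was the most abundant at 183.22 RPKM in control and 195.525 RPKM in CUMS (log2 ratio 0.09). Rgs4 and Rgs7 encode proteins that end G protein signals. Rgs4 had 112.36 RPKM in control and 146.41 RPKM in CUMS (0.38), and Rgs7 had 21.895 and 28.08 RPKM (0.36). Rgs9, which is characteristic of the striatum, had 31.98 RPKM in control and 26.34 RPKM in CUMS (-0.28). Adcy8, an adenylyl cyclase, had 6.18 and 4.84 RPKM (-0.35).

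Within each group the order of levels was read with the counting intervals of the ratio between neighbors. In control it ran from Ache through Chrm1, Chrm4, Chrnb2, Chrna4, Chrm3, Chat, Slc18a3 and Slc5a7 to Chrm2. The neighbors Chrna4 and Chrm3, Chat and Slc18a3, and Slc5a7 and Chrm2 did not differ beyond counting error. In CUMS the order was Chrm1, Ache, Chrm4, Chrnb2, Chrm3, Chrna4, Slc5a7, Chat, Chrm2 and Slc18a3. There the levels from Chrnb2 to Chrna4 could not be separated between neighbors, nor could those from Slc5a7 to Slc18a3. The first place changed from Ache to Chrm1, whose level was 0.862 times that of Ache in control (0.811 to 0.916) and 1.247 times in CUMS (1.17 to 1.33).

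Markers of several cell types differed along with these genes. Besides Chat, Slc18a3 and Slc5a7, 7 further genes were listed as markers of cholinergic neurons. All 7 of 7 had a mean more than 1.5-fold lower in CUMS with an interval under 0. Whether only cholinergic neurons make them in this tissue was not tested, and Isl1 was also listed for striatal neurons. Over all genes with at least 0.5 RPKM, 4.41% were more than 1.5-fold lower and 16.8% had an interval under 0. Among genes whose larger mean was 0.5 to 5 RPKM, 10.5% were more than 1.5-fold lower. This and the other cell type lists were chosen with earlier results of these data known, so the count is not independent of them. Summed, the 7 genes had 18.235 RPKM in control against 5.71 RPKM in CUMS, and their median log2 ratio was -1.77. Lhx8, a transcription factor of forebrain cholinergic neurons, had 3.40 RPKM in control and 0.845 RPKM in CUMS (log2 ratio -2.01). Gbx1, a homeobox gene, had 1.565 RPKM and 0.13 RPKM (34 and 3 fragments), with a log2 ratio of -3.59 and an interval from -5.86 to -1.84.

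Ngfr, a neurotrophin receptor long used to mark basal forebrain cholinergic neurons, was the most abundant of these markers. It had 5.10 RPKM in control and 1.495 RPKM in CUMS (log2 ratio -1.77). Isl1, which marks striatal as well as cholinergic neurons, had 2.705 RPKM in control and 1.185 RPKM in CUMS (-1.19). Tacr3 (-1.06) and Zic4 (-0.89) had the smallest differences of the 7. None of the 7 was listed at 0 in either group. The log2 ratio of Chat lay 0.23 above the median of these markers, that of Slc18a3 lay at -0.06 from it, and that of Slc5a7 lay 0.99 above it. How far the presynaptic differences follow the number of cholinergic cell bodies in the dissected tissue was not tested.

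Markers of striatal projection neurons were present in the tissue labelled as mPFC, and none of the 14 listed was at 0. In CUMS 13 of the 14 had a lower mean, 1 of them (Isl1) past 1.5-fold, with a median log2 ratio of -0.29 and a summed level of 600.55 RPKM in control and 499.505 RPKM in CUMS. Penk had 165.975 RPKM in control and 120.775 RPKM in CUMS (log2 ratio -0.46), Adora2a 23.2 and 17.0 RPKM (-0.45), and Drd2 13.985 and 11.02 RPKM (-0.34). Ppp1r1b was the most abundant, at 191.08 and 170.415 RPKM. Ache and Chrm4, genes with high expression in the striatum, had log2 ratios 0.02 and 0.18 above the median of this list. The part of striatal tissue in their differences was not tested.

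Markers of neocortical excitatory neurons had higher means in 13 of 14 cases, with an interval above 0 for 12, a median log2 ratio of 0.30 and a summed level of 1731.75 RPKM in control and 2079.76 RPKM in CUMS. Emx1 was past 1.5-fold, at 9.28 RPKM in control and 14.515 RPKM in CUMS (log2 ratio 0.65). Neurod2 (0.36) and Cux2 (0.35) were among the other genes with higher means, and Camk2a was the most abundant at 827.76 and 957.92 RPKM. The log2 ratio of Chrm1 lay at -0.03 from the median of this list, that of Chrna4 at 0.03, that of Chrm3 at 0.16 and that of Chrnb2 at -0.49. The part of excitatory neuron content in the receptor differences was not tested.

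The other cell type lists were as follows. Of 12 interneuron markers, 5 had a lower and 7 a higher mean, with a median log2 ratio of 0.06. Vip, which marks the interneurons that include the cortical cells able to make acetylcholine, had 15.65 RPKM in control and 22.285 RPKM in CUMS (0.51). Calb2, found in many of the same cells, had 36.075 and 19.115 RPKM (-0.92). Of 9 oligodendrocyte markers, 8 had a lower mean, 4 of them past 1.5-fold, with a median of -0.56 and a summed level of 1886.33 RPKM in control and 1284.29 RPKM in CUMS. Of 8 vascular markers, 3 had a lower and 5 a higher mean, with a median of 0.01. The interval lay under 0 for 2, against 16.8% of the 14257 genes, and above 0 for 0, against 12.5%. Cldn5 was past 1.5-fold, at 38.135 RPKM in control and 24.96 RPKM in CUMS (-0.61), and the summed level was 118.815 and 105.975 RPKM. Whether these lists have a part in the differences of the 10 genes was not tested.

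**Figure D5:**
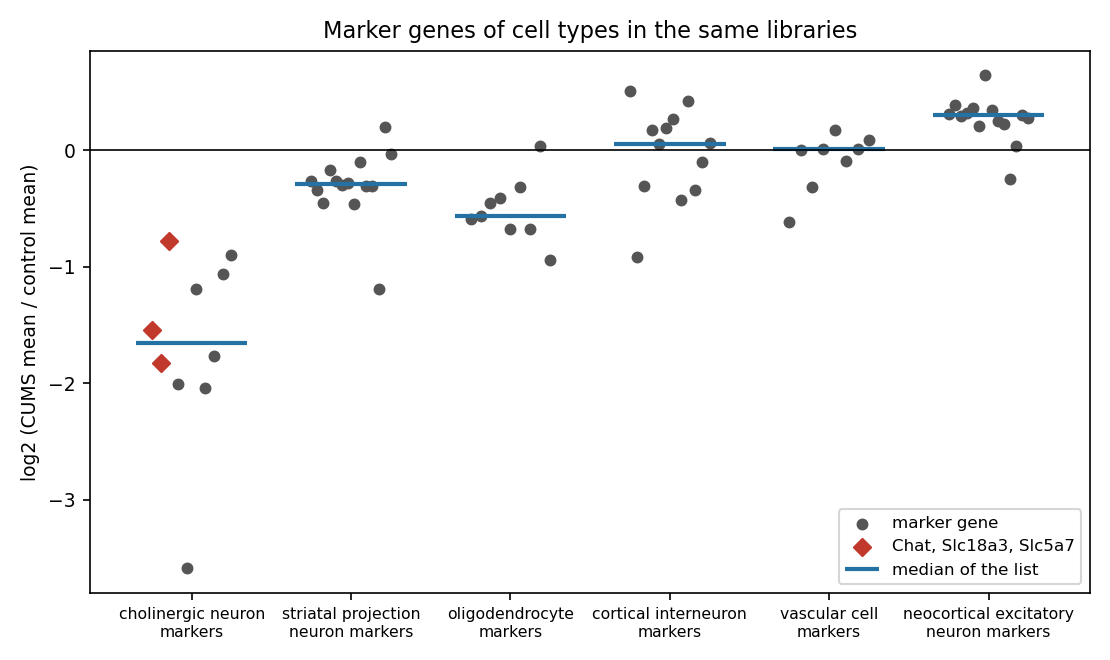
Log2 ratio of CUMS over control for each marker gene, in columns by cell type, with the median of each list as a blue line and Chat, Slc18a3 and Slc5a7 as red diamonds. The 10 cholinergic neuron markers all lie under 0, with a median of -1.66, while 13 of 14 neocortical excitatory markers lie above 0.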

How the data were processed

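Poly(A) mRNA of mouse mPFC was sequenced with paired ends on the Illumina HiSeq platform (2 control and 2 CUMS libraries). According to the methods of the study and the submitters' processing notes, reads were cleaned with SolexaQA, aligned to mm10 with TopHat 1.0.12 and Bowtie 0.11.3 allowing up to 3 mismatches, and reads with a unique alignment entered the gene counts. The annotation and the use of strand are not given in the sources used here. The deposited values were RPKM, which the authors had averaged over the libraries of each group, with the gene length. The authors' log2 ratio and NOISeq probability columns, which hold their own comparison, were not used.

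The 10 members and 12 gene lists were chosen with earlier results of these data known, and the motifs were chosen with the sequences in view. All 10 members are named. From each list, the up to 4 genes with the largest ratio (interval excluding 0, 0.5 RPKM or more in a group), the most abundant gene and the genes under 0.5 RPKM in both groups were eligible to be named. Prima1, Chrna7 and the cholinergic markers Isl1, Tacr3 and Zic4 were added after their values were seen. Some genes that this rule would name are not reported here.

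A mean of 0.01 RPKM stood for 0 (590 control and 619 CUMS genes). The value of 1 fragment was estimated from genes under 1000 bases with a product of RPKM and length under 350, as the step between 20 and 200 on which most products fell. The steps were 67.7 in control and 67.2 in CUMS, and 86.5% of 406 and 86.2% of 392 products lay within 0.15 of a whole step, against 29.1% and 35.2% with lengths shuffled. Fragments were taken as independent molecules. Intervals are exact, Poisson for levels and Clopper-Pearson for ratios. Because 1 mean per group allows no test, a difference past 1.5-fold was counted beside its share over the table. The code of the estimate was run on simulated data with a known step, drawn under the same assumptions. Such a run cannot show that the step in the real data is 1 fragment. Python 3.11.15, numpy 2.4.6, scipy 1.17.1, pandas 2.3.3 and matplotlib 3.10.9 were used. Loci and promoters come from RefSeq (GRCm38.p6), exons from GENCODE M21.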

Additional observations from a re-analysis of the deposited data

How the results depend on the processing

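No paired analysis was possible because values were deposited as group means, and for the same reason leaving out each library in turn was not run. Centring the log2 ratios of all genes on 0 (shift 0.015) or equalising totals (-0.0076), and other depths for the intervals (10 members excluding 0 at 2 times the depth, 8 at the depth divided by 2, against 9), changed neither the direction of any member nor a count by more than 1.5 times. With log2(RPKM + 1), members past 1.5-fold numbered 2 instead of 4, with Chat at -0.95 and Slc18a3 at -1.08, since adding 1 shrinks ratios of low genes. A 2-fold threshold also left 2. Keeping members with at least 5 RPKM leaves out the 4 low members by construction. Of the others, 3 had a lower mean, 0 were past 1.5-fold, the interval excluded 0 for 5, and the median log2 ratio turned from -0.22 to 0.078. Under that filter the vascular list's median turned from 0.01 to -0.0399. Depth limits the genes with few fragments, among them Chrm2 with 51 in control and 27 in CUMS, and several other genes named with still fewer.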
